A study of Mus musculus with 47 samples.

Results

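Glycolysis breaks glucose down to pyruvate in the cytosol. Pyruvate is then either reduced to lactate by lactate dehydrogenase or carried into mitochondria, where the pyruvate dehydrogenase complex turns it into acetyl-CoA. In brain, many of these steps are served by several isozymes, glycogen is stored mainly in astrocytes, and lactate passes between cells through monocarboxylate transporters.

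The genes described here are 35 members of this pathway. They cover glucose entry, the enzymes of glycolysis, lactate dehydrogenase and its transporters, pyruvate entry into mitochondria, the pyruvate dehydrogenase complex with its kinases and phosphatase, and glycogen enzymes. They were chosen by symbol as genes of the pathway, and each of the 35 was found among the 29858 genes listed in both count tables, of 35032 listed in either. RNA-seq was done on brainstem (23 libraries) and hippocampus (24 libraries) of male C57BL/6 mice at 12 months of age. Wild-type (WT) mice and transgenic (TG) mice received either a standard diet (SD) or a high-fat diet (HFD) from 5 weeks of age. The 4 groups are called WT_SD, WT_HFD, TG_SD and TG_HFD, with 6 libraries each in both regions except brainstem WT_SD, which had 5. The transgene is driven by the neuron-specific Thy1 promoter. TG mice were a homozygous colony and WT mice a parallel colony from the same outcross, so that genotype and colony cannot be told apart. The brainstem tissue was the medulla. The labels do not say which hippocampus and brainstem libraries came from the same animal, and libraries were treated as independent. Libraries of the same group and number in both regions had correlations of their deviations from the group means of −0.104 to 0.593 over 17 pairs (median 0.125), so that the independence is an assumption.

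Total counts were between 10020784 and 15078812 reads in brainstem and between 11945971 and 17328447 in hippocampus. Of 5 hippocampal markers, 5 were higher in hippocampus, and the 3 tested markers of the medulla were lower there, with a summed level of at most 0.517 CPM (reads scaled to a library of 1000000) in hippocampus against 275 to 492 in brainstem. Of the 35 members, 33 passed the count filter (a mean of at least 50 reads) in brainstem, 34 in hippocampus and 34 in the comparison of both regions. Slc16a3, which encodes the monocarboxylate transporter MCT4, was below it throughout, with a median of 1.36 CPM in brainstem and 1.17 CPM in hippocampus. Hk2 passed it in hippocampus and over both regions but not in brainstem. The smallest spread between libraries of a group was that of Pfkp in brainstem, with a median coefficient of variation of 2.55% over the groups, and Pkm in hippocampus, with 3.20%. Among tested members it was largest for Pfkl in brainstem (13.5%) and Pygm in hippocampus (15.6%).

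Of the isozyme pairs, the lactate dehydrogenase subunits differed most between the regions. Ldha encodes the A (muscle type) subunit and Ldhb the B (heart type) subunit, and tetramers of both interconvert pyruvate and lactate. Their promoters are shown because these genes differed between the regions in opposite directions. Both were taken from RefSeq on GRCm38.p6 and run from 250 bases before to 50 bases after the start of transcription, 5′ to 3′ on the strand of the gene. The table holds 2 starts for Ldha and 1 for Ldhb. The Ldha promoter shown, the only 1 of the 2 with a match to the motif below, lies at chr7:46845554-46845853 on the plus strand and the Ldhb promoter at chr6:142507908-142508207 on the minus strand. Capitals mark ACGTG, the core of the hypoxia response element, or its reverse complement CACGT. Where these overlap as the palindrome CACGTG, which is also an E-box, the whole palindrome is in capitals.
Ldha: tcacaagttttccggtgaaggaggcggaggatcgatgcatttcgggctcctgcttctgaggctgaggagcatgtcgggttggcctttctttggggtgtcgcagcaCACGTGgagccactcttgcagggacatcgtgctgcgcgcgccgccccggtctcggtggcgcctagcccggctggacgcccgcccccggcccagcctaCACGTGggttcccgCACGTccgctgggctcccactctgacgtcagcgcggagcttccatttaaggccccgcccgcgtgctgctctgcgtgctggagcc
Ldhb: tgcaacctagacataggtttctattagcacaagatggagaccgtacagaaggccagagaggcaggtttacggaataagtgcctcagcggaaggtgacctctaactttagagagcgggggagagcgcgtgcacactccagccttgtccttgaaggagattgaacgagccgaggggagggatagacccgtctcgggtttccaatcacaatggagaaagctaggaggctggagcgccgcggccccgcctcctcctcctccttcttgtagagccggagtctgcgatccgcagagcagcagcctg
The Ldha sequence shown holds 5 matches, 2 forward and 3 reverse, and 2 of its 3 capital runs are the palindrome. The other Ldha promoter and the Ldhb sequence hold none. At least 1 match is present in 19.6% of the 32851 promoters in the table, in 25.2% of the 12277 promoters of genes tested between the regions, and in 22 of the 48 promoters (45.8%) that matched 32 of the members. A match of letters is a description of the sequence and no evidence of binding, and the absence of one says only that these letters are not in this window. No promoter was found in the table for Slc2a3, Slc16a7 and Pdp1.

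Regional levels were compared over all 47 libraries with edgeR's quasi-likelihood test, as the mean over the 4 groups of hippocampus minus brainstem. A gene was called where its p, adjusted by Benjamini-Hochberg over all 13458 tested genes, was no more than 0.05 and its log2 fold change was 0.3 or more in size. Of the 34 tested members, 22 were called (64.7%), against 60.2% of all tested genes. Higher in hippocampus were 9 members and lower 13, against 29.2% and 31% of all tested genes in these directions. The share of members called was thus near the background. Among the 9 higher was Hk2, which was below the count filter in brainstem. With a log2 fold change of 1 or more in size, 7 members (20.6%) were called, against 18.4%. Without any overlap between the libraries of the regions were 18 members (52.9%), 8 higher and 10 lower, against 35% of all tested genes. The median log2 fold change was −0.165 over members and −0.0206 over all tested genes. No member had a called interaction of region with genotype (0.0223% of all tested genes called) or with diet (0%).

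**Figure D1:**
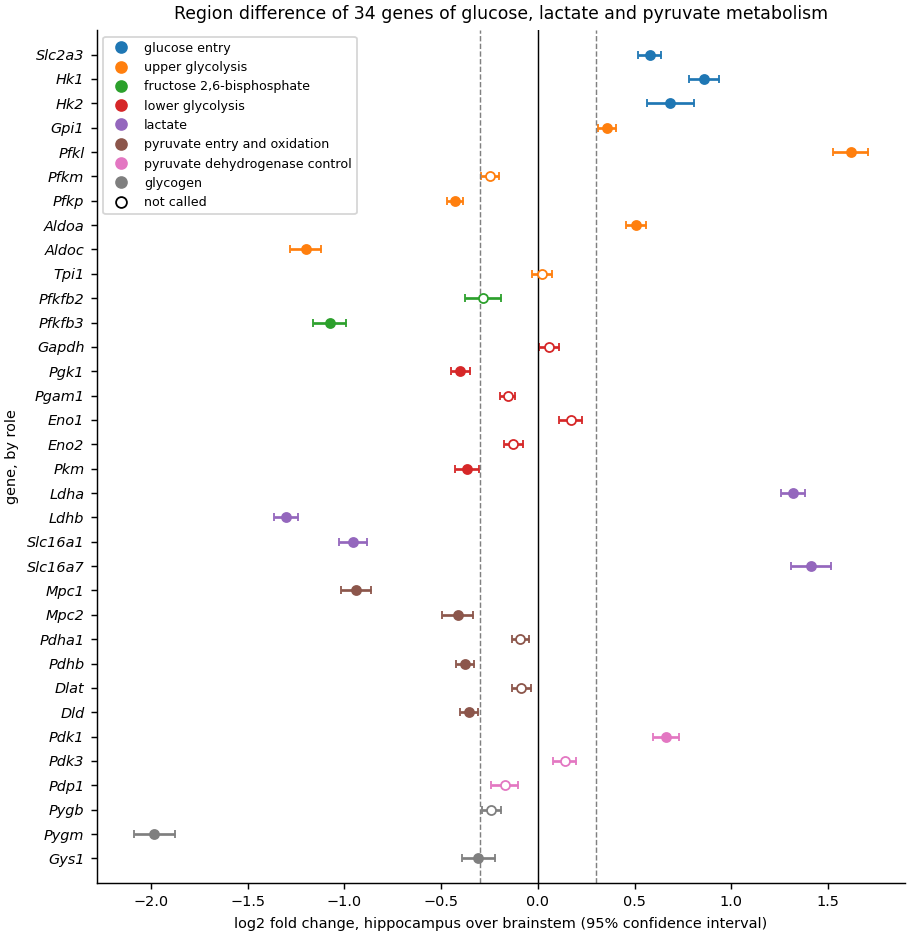
Log2 fold change of hippocampus over brainstem for the 34 tested genes (x axis), ordered and coloured by role (y axis), with 95% confidence intervals over 47 libraries. Filled points passed the adjusted p and the fold threshold of 0.3 (dashed lines), and open points did not. Ldha, Pfkl and Slc16a7 lie farthest to the right, and Pygm, Ldhb, Aldoc and Pfkfb3 farthest to the left.

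Ldha was low in brainstem, with 87.3 CPM in the lowest library, a median of 98.5 and 122 in the highest, and was between 224 and 274 CPM in hippocampus (median 246). The regions did not overlap, and the level was 2.50-fold higher in hippocampus (log2 fold change 1.32, 95% confidence interval 1.26 to 1.38, edgeR adjusted p = 1.14e-37). Ldhb ran the other way. Its level was between 696 and 899 CPM in brainstem (median 792) and between 294 and 387 CPM in hippocampus (median 324), again without overlap, which was 2.47-fold lower (log2 fold change −1.30, 95% confidence interval −1.36 to −1.24, edgeR adjusted p = 8.66e-38). Within each of the 4 groups the log2 fold change was between 1.25 and 1.40 for Ldha and between −1.37 and −1.24 for Ldhb.

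The monocarboxylate transporters also moved in opposite directions. Slc16a7 encodes MCT2, the high-affinity transporter known from neurons, and Slc16a1 encodes MCT1, which is known from endothelial cells, astrocytes and oligodendrocytes. Slc16a7 was between 9.43 and 20.3 CPM in brainstem (median 14.7) and between 28.9 and 49.9 CPM in hippocampus (median 38.9), a 2.66-fold higher level without overlap (log2 fold change 1.41, 95% confidence interval 1.31 to 1.52, edgeR adjusted p = 9.33e-30). Slc16a1 was between 75.8 and 101 CPM in brainstem (median 88.0) and between 37.2 and 55.6 CPM in hippocampus (median 45.2), a 1.94-fold lower level without overlap (log2 fold change −0.96, edgeR adjusted p = 7.63e-29). All 4 tested lactate genes were therefore called, 2 higher and 2 lower, where 60.2% of all tested genes were called.

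**Figure D2:**
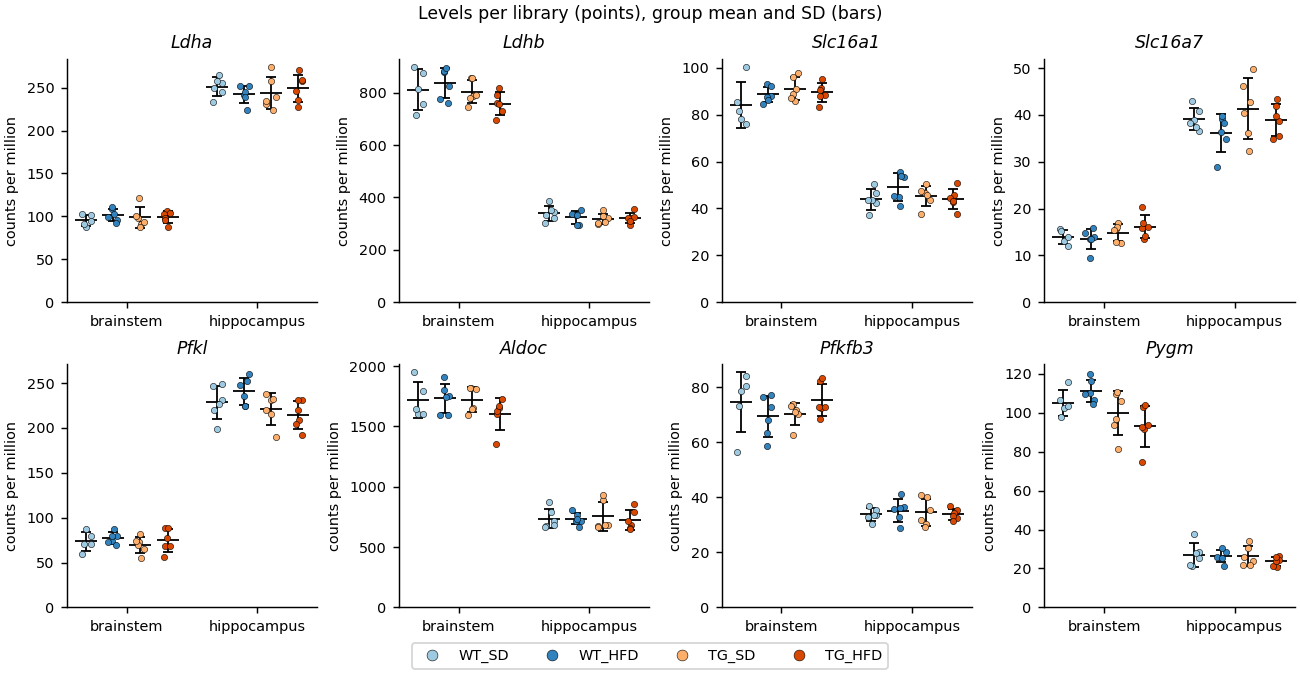
Levels in CPM (y axis, from 0) of 8 members in each library (points), by region and group, with the group mean and SD (bars). Within a region the groups overlap, except Pygm of brainstem TG_HFD and WT_HFD, while Ldha, Slc16a7 and Pfkl are higher and Ldhb, Slc16a1, Aldoc, Pfkfb3 and Pygm lower in hippocampus in every library.

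All 3 genes of glucose entry were called higher in hippocampus, where 29.2% of all tested genes were. Of the 3, Hk2 was below the count filter in brainstem and entered this test through its reads in hippocampus. Slc2a3, which encodes the neuronal glucose transporter GLUT3, had a median of 89.2 CPM in brainstem and 132 CPM in hippocampus (log2 fold change 0.58, edgeR adjusted p = 1.59e-23). Hk1, the main hexokinase of brain, which phosphorylates glucose, was between 151 and 244 CPM in brainstem and between 315 and 423 CPM in hippocampus (log2 fold change 0.86, edgeR adjusted p = 9.91e-26). Neither gene overlapped between the regions. Hk2, the hexokinase of muscle and fat, was scarce in both regions, with medians of 3.34 and 5.46 CPM and overlapping libraries (log2 fold change 0.69, edgeR adjusted p = 1.37e-14).

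Of the 7 genes of upper glycolysis, 3 were higher and 2 lower in hippocampus, against 29.2% and 31% of all tested genes. Phosphofructokinase catalyses the committed step and is built from liver (Pfkl), muscle (Pfkm) and platelet (Pfkp) type subunits. Pfkl was between 54.7 and 88.5 CPM in brainstem (median 73.4) and between 190 and 261 CPM in hippocampus (median 229), a 3.07-fold higher level without overlap (log2 fold change 1.62, 95% confidence interval 1.53 to 1.71, edgeR adjusted p = 7.41e-35). Pfkp was lower in hippocampus, at a median of 186 against 248 CPM (log2 fold change −0.43, edgeR adjusted p = 2.99e-24), and its libraries did not overlap. Pfkm, with medians of 399 CPM in brainstem and 339 CPM in hippocampus, had a log2 fold change of −0.25 (edgeR adjusted p = 2.38e-13), below the fold threshold. Aldolase splits fructose bisphosphate, and its C form, Aldoc, is known as an astrocyte enzyme and, in cerebellum, as a Purkinje cell marker. Aldoc was between 1351 and 1948 CPM in brainstem (median 1653) and between 646 and 930 CPM in hippocampus (median 717), a 2.30-fold lower level without overlap (log2 fold change −1.20, 95% confidence interval −1.28 to −1.12, edgeR adjusted p = 2.74e-31). Aldoa, the A form, was higher, with medians of 1047 and 1502 CPM and no overlap (log2 fold change 0.51, edgeR adjusted p = 2.17e-23). Gpi1, glucose phosphate isomerase, was also higher (log2 fold change 0.36, edgeR adjusted p = 7.04e-19), and triose phosphate isomerase, Tpi1, had a log2 fold change of 0.02 (edgeR adjusted p = 0.479).

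Pfkfb3 and Pfkfb2 make and break fructose 2,6-bisphosphate, the activator of phosphofructokinase. Pfkfb3 was between 56.7 and 84.3 CPM in brainstem (median 72.8) and between 28.7 and 41.2 CPM in hippocampus (median 34.1), a 2.11-fold lower level without overlap (log2 fold change −1.08, 95% confidence interval −1.16 to −0.99, edgeR adjusted p = 2.70e-28). Pfkfb2 had a log2 fold change of −0.28 (edgeR adjusted p = 2.73e-07), below the fold threshold.

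The enzymes of lower glycolysis had log2 fold changes between −0.40 and 0.17. Of 6 genes, 2 were called, both lower in hippocampus, namely Pgk1 (phosphoglycerate kinase, log2 fold change −0.40, edgeR adjusted p = 3.25e-20) and Pkm (pyruvate kinase, log2 fold change −0.37, edgeR adjusted p = 1.93e-15). Of all tested genes, 31% were called lower. The log2 fold changes of Gapdh, Pgam1, Eno1 and Eno2 were 0.06, −0.16, 0.17 and −0.13. Eno2, the neuronal enolase, had medians of 917 CPM in brainstem and 814 CPM in hippocampus, and Eno1, the widespread form, 666 and 750 CPM. Values of Gapdh, Pgk1, Pgam1, Eno1, Pkm, Ldha, Aldoa and Tpi1 are uncertain, since near-identical copies of these genes exist and how such reads were assigned is not stated. Listed copies held many reads: Eno1b between 61.5% and 65.6% of the number for Eno1 in every library, Pgk1-rs7 between 54.4% and 59.4% of that for Pgk1, and Pgam1-ps2 between 27.6% and 35% of that for Pgam1. For Ldhb the copy Gm5514 held between 23.8% and 27.2%, and for Pkm the copy Gm6560 between 13.2% and 15.6%. For Gapdh the copies Gm12033 and Gm5559 each held between 38.9% and 44.5%. Pgk1-rs7 and another copy of Pgk1, Gm5537, had nearly equal mean counts in brainstem, 4167.7 and 4166.3 reads. Whether the same reads were counted for several copies was not tested. Aldoa and Tpi1 shared less of their sequence, 0.672% and 1.35% of their stretches of 75 bases, than Pkm with 17.8%. Ldha shared 2.69%. Gpi1 shared 10.8%, and its copy Gm1840 held between 7.73% and 10.6% of the number for Gpi1, so that its value is uncertain as well. The transcripts of Pfkl, Aldoc, Eno2, Pygm, Pygb, Pfkfb3, Slc16a1 and Pdk1 shared no stretch of 75 bases, the read length, with another gene.

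No gene of pyruvate entry and oxidation was called higher in hippocampus and 4 of 6 were called lower. Of all tested genes, 29.2% were called higher and 31% lower, and 6 genes are too few to set apart from these shares. Mpc1 and Mpc2 form the mitochondrial pyruvate carrier. Mpc1 was between 70.2 and 106 CPM in brainstem and between 39.3 and 52.4 CPM in hippocampus (log2 fold change −0.94, edgeR adjusted p = 2.94e-27), although its copy Mpc1-ps held between 37.3% and 55.3% as many reads. Mpc2 had a log2 fold change of −0.42 (edgeR adjusted p = 2.93e-13), and its libraries overlapped. Of the pyruvate dehydrogenase complex, Pdhb (E1 beta, log2 fold change −0.38) and Dld (E3, −0.36) were called lower, while Pdha1 (E1 alpha, −0.09) and Dlat (E2, −0.08) were below the fold threshold. Among the regulators, Pdk1, a kinase that switches the complex off, was between 29.4 and 46.5 CPM in brainstem and between 47.1 and 60.1 CPM in hippocampus without overlap (log2 fold change 0.66, edgeR adjusted p = 2.41e-24). The kinase Pdk3 (0.14) and the phosphatase Pdp1 (−0.17) were not called.

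Pygm, the muscle form of glycogen phosphorylase, which in brain is known from astrocytes, differed most between the regions of all members. It was between 74.5 and 120 CPM in brainstem (median 103.8) and between 20.9 and 37.9 CPM in hippocampus (median 25.4). The level was 3.95-fold lower in hippocampus without overlap (log2 fold change −1.98, 95% confidence interval −2.09 to −1.88, edgeR adjusted p = 2.23e-35). The brain form, Pygb, had medians of 307 and 257 CPM (log2 fold change −0.24, edgeR adjusted p = 9.67e-13), below the fold threshold. Gys1, glycogen synthase, was lower (log2 fold change −0.31, edgeR adjusted p = 6.86e-09) with overlapping libraries.

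Cell type markers differed between the regions as well. In bulk tissue, fewer cells of a type and less RNA per cell cannot be told apart. All 6 oligodendrocyte markers were lower in hippocampus, with a summed level of 12291 to 20737 CPM in brainstem and 2986 to 4639 CPM in hippocampus. Of the 4 endothelial markers 3 were lower (summed level 223 to 285 against 126 to 174 CPM), as were all 4 red blood cell genes (599 to 3349 against 167 to 568.3 CPM). Of the astrocyte markers 2 were higher and 3 lower, with a summed level of 2584 to 3472 CPM in brainstem and 3985 to 5028 CPM in hippocampus. Of the neuron markers 3 were higher and 3 lower, with summed levels of 5397 to 6320 and 5440 to 6333 CPM. Of the microglia markers 4 of 5 were higher in hippocampus (summed level 152 to 261 against 217 to 284 CPM), as were both markers of oligodendrocyte precursors (52.1 to 69.8 against 70.9 to 80.4 CPM). The choroid plexus genes summed to 11.5 to 2945 CPM in brainstem and 37.7 to 314 CPM in hippocampus, and 11 brainstem libraries were above 500 CPM. Without these 11 libraries, 21 members were called between the regions in place of 22. The part of cell composition in the region differences was not tested.

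Isozyme use was then described within each library as the log2 ratio of reads per kb of exon between 2 genes, which does not depend on library scaling. The 9 pairs were compared by permutation tests, with Benjamini-Hochberg adjustment over 81 tests. Between the regions, 8 of 9 ratios passed, each at the smallest p that 100000 permutations can give (1e-05, adjusted p = 0.000101), and 6 of them did not overlap. Per kb, brainstem held 17.1 times as much Ldhb as Ldha in the median library (14.3 to 20.6), and hippocampus 2.77 times (2.50 to 3.17), a log2 difference of −2.62. With the longest coding transcript as length, the ratios were 11.3 (9.43 to 13.6) and 1.83 (1.65 to 2.09). The level of every ratio here depends on the length used, while the log2 difference between the regions does not. Aldoc exceeded Aldoa in every brainstem library (ratio 1.31 to 1.75) and was below it in every hippocampus library (0.391 to 0.549). This order depends on the length used, since with the longest coding transcript the brainstem ratio was 0.816 to 1.09, whereas the log2 difference between the regions, −1.71, does not. Pfkl was below Pfkp in brainstem (0.464 to 0.725) and above it in hippocampus (1.997 to 2.84), a log2 difference of 2.05. Slc16a7 was far below Slc16a1 in brainstem (0.0380 to 0.0912) and less so in hippocampus (0.238 to 0.461), a log2 difference of 2.38. Pygm was 0.374 to 0.665 of Pygb in brainstem and 0.118 to 0.217 in hippocampus (log2 difference −1.75).

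Smaller differences were those of Eno2 to Eno1 (log2 difference −0.30), Pfkm to Pfkp (0.18) and Pdk3 to Pdk1 (−0.52). The ratio of Hk2 to Hk1 did not pass (log2 difference −0.18, permutation p = 0.00977, adjusted p = 0.0719). It passed when 5 reads instead of 0.5 were added to each gene (−0.24, adjusted p = 0.00396).

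**Figure D3:**
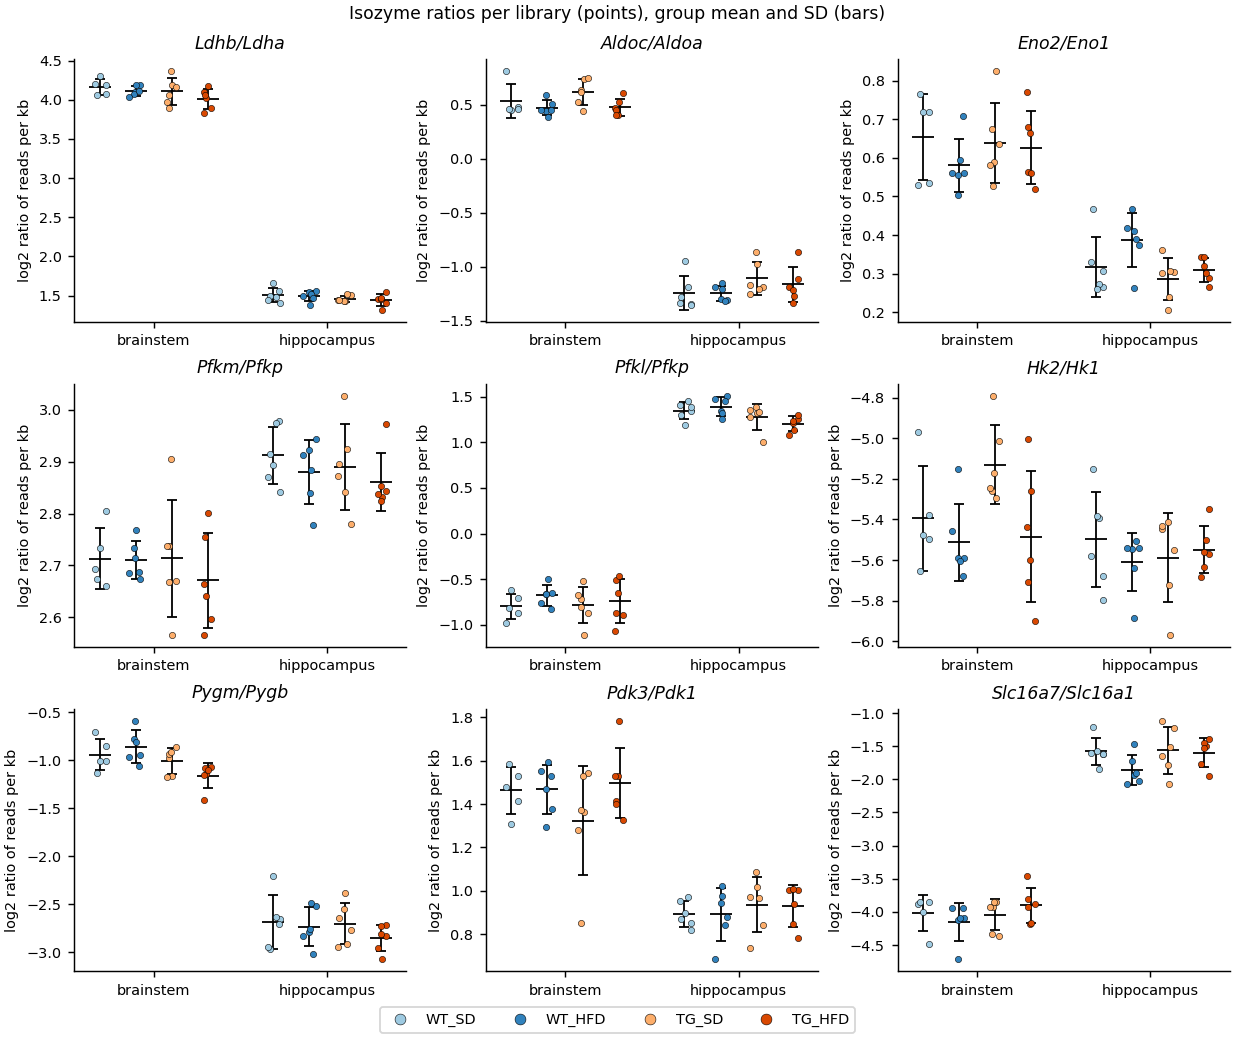
Log2 ratio of reads per kb of exon (y axis, not starting at 0) for 9 isozyme pairs in each library (points), by region and group, with the group mean and SD (bars). The regions separate without overlap for Ldhb/Ldha, Aldoc/Aldoa, Eno2/Eno1, Pfkl/Pfkp, Pygm/Pygb and Slc16a7/Slc16a1. In brainstem, Pygm/Pygb is lower in all 6 TG_HFD libraries than in all 6 WT_HFD libraries.

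Genotype and diet were compared within each region in a model of all 4 groups with 4 surrogate variables, which stand for unmodelled variation between libraries. No member was called in any of the 4 pairwise contrasts or the interaction in either region. The members' log2 fold changes in the pairwise contrasts were between −0.13 and 0.19 in brainstem and between −0.22 and 0.16 in hippocampus. In this fit few genes of any kind were called. In brainstem the share of all tested genes called was 0.142% for TG_SD/WT_SD, 0.0525% for TG_HFD/WT_HFD, 0% for WT_HFD/WT_SD, 0.0075% for TG_HFD/TG_SD and 0.0075% for the interaction. In hippocampus the shares were 0.098%, 0.226%, 0%, 0% and 0% in the same order. These shares depend on the surrogate variables. For hippocampus TG_HFD/WT_HFD, 30 genes were called with 4 of them. At the same thresholds 515, 614 and 634 were called with 0, 1 and 2 of them, and no member was among these. The 95% confidence interval lay within ±0.3 for 33, 32, 33 and 32 of 33 members in the brainstem contrasts and for 33, 30, 31 and 34 of 34 in the hippocampus contrasts. For the interactions this held for 29 and 30 members.

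At an unadjusted p of at most 0.05 in edgeR, 3, 2, 4, 2 and 2 of 33 members passed in brainstem, where 10.5%, 5.59%, 5.43%, 6.91% and 4.83% of all tested genes did. In hippocampus 5, 2, 2, 1 and 1 of 34 members passed, where 9.08%, 11.3%, 6.41%, 7.08% and 5.98% of all tested genes did. The highest count of members, 5, was that of TG_SD/WT_SD in hippocampus. DESeq2 with surrogate variables gave 0 called members as well. Its highest counts at an unadjusted p of at most 0.05 were in TG_SD/WT_SD, with 7 of 34 members in hippocampus, where 966 of 13272 genes passed, and 4 of 33 members in brainstem, where 1110 of 13340 genes did.

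**Figure D4:**
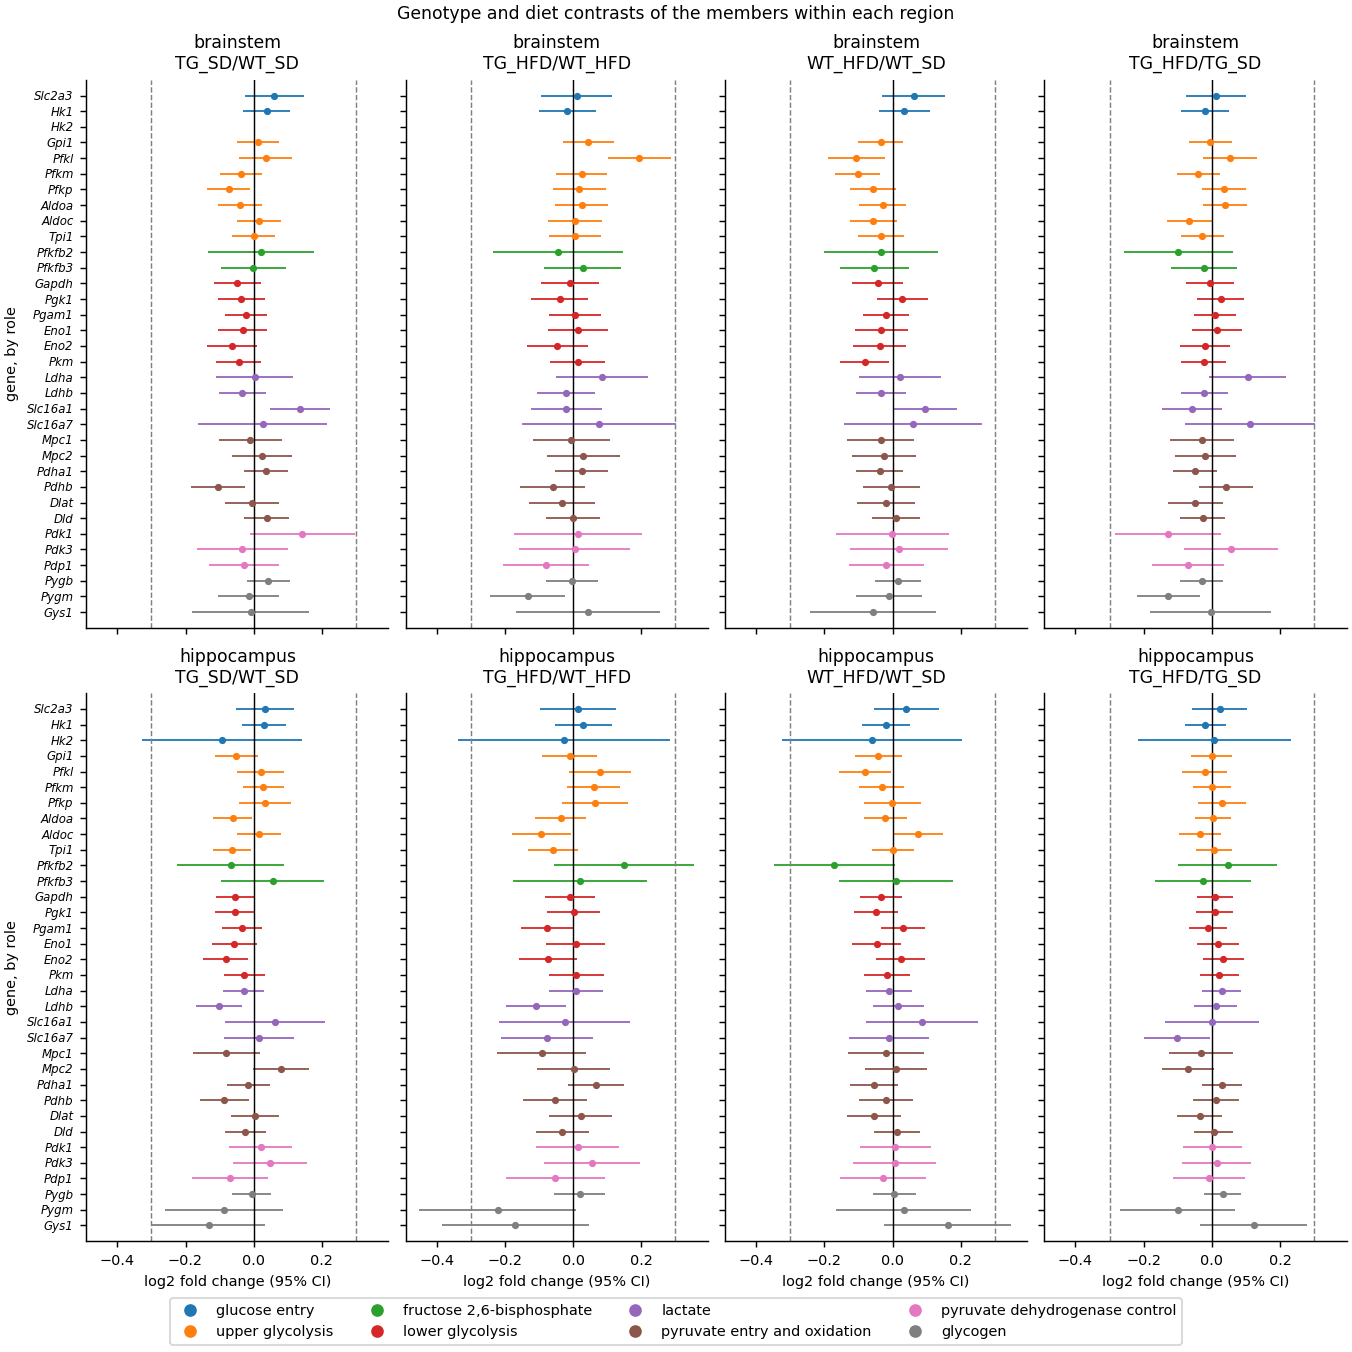
Log2 fold changes (x axis) with 95% confidence intervals for each tested gene (y axis, coloured by role) in 4 contrasts of genotype or diet in brainstem (top) and hippocampus (bottom). Dashed lines mark the fold threshold of 0.3. No member passed the test, and nearly all intervals lie between the dashed lines.

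The members of lowest p are given with their values. In brainstem TG_SD/WT_SD, Slc16a1 was 78.1, 101, 85.4, 75.8 and 81.7 CPM in the 5 WT_SD libraries and 85.9 to 97.9 CPM in TG_SD (median 89.8). The groups overlapped, and the log2 fold change was 0.14 (SE 0.0425, edgeR adjusted p = 0.216). Pdhb was 138, 147, 140, 138 and 134 CPM in WT_SD and 122 to 145 CPM in TG_SD (median 135), with a log2 fold change of −0.11 (edgeR adjusted p = 0.286). In brainstem WT_HFD/WT_SD, Pfkm was 448, 453, 382, 408 and 401 CPM in WT_SD and 388 to 422 CPM in WT_HFD (median 399), with a log2 fold change of −0.10 (edgeR adjusted p = 0.896).

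Pfkl had the lowest p in brainstem TG_HFD/WT_HFD. It was 56.0 to 88.5 CPM in TG_HFD (median 73.2) and 69.6 to 87.7 CPM in WT_HFD (median 76.8), overlapping and with a slightly lower median in TG_HFD. The fitted log2 fold change was nevertheless 0.19 (edgeR adjusted p = 0.167), and without surrogate variables it was −0.05. Its sign also depended on the surrogate variables in WT_HFD/WT_SD, where it was −0.11 in brainstem (edgeR adjusted p = 0.896) and −0.08 in hippocampus (edgeR adjusted p = 0.756), against 0.07 and 0.08 without them. In brainstem WT_SD, Pfkl was 87.4, 79.2, 59.9, 70.7 and 71.2 CPM. In hippocampus it was 199 to 249 CPM in WT_SD (median 229) and 224 to 261 CPM in WT_HFD (median 241). The brainstem interaction of Pfkl, 0.16, also missed the threshold (edgeR adjusted p = 0.993).

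In hippocampus, Ldhb was 301 to 387 CPM in WT_SD (median 339) and 297 to 351 CPM in TG_SD (median 313), a log2 fold change of −0.10 (edgeR adjusted p = 0.258), which was −0.01 without WT_SD replicate 6 and −0.06 without WT_SD replicate 4. On HFD it was 294 to 352 CPM in WT (median 333) and 295 to 356 CPM in TG (median 320), with a log2 fold change of −0.11 (edgeR adjusted p = 0.303). The groups overlapped in both cases. On HFD the mean of Ldhb was 324 CPM in WT and 321 CPM in TG. In DESeq2 without surrogate variables its log2 fold change on HFD was 0.00105. Eno2 was 786 to 887 CPM in WT_SD (median 855) and 747 to 796 CPM in TG_SD (median 773), a log2 fold change of −0.08 (edgeR adjusted p = 0.377), and the groups overlapped. Aldoc had log2 fold changes of −0.09 in TG_HFD/WT_HFD (edgeR adjusted p = 0.382), 0.07 in WT_HFD/WT_SD (edgeR adjusted p = 0.775) and −0.11 in the interaction (edgeR adjusted p = 0.774). Its range was 646 to 854 CPM in TG_HFD, 668 to 809 CPM in WT_HFD and 668 to 873 CPM in WT_SD. The means were 724, 735 and 735 CPM in this order. Without surrogate variables the log2 fold change of Aldoc in WT_HFD/WT_SD was −0.00148. In brainstem TG_HFD/TG_SD, Aldoc had −0.07 (1351 to 1725 against 1595 to 1822 CPM, edgeR adjusted p = 0.722). In hippocampus TG_HFD/TG_SD, Slc16a7 had −0.10 (34.8 to 43.4 against 32.2 to 49.9 CPM, edgeR adjusted p = 0.674) and Mpc2 −0.07 (45.2 to 51.9 against 47.7 to 60.6 CPM, edgeR adjusted p = 0.767).

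Among CPM levels, only 2 members did not overlap between groups of a region, Pygm in brainstem TG_HFD/WT_HFD and Hk1 in hippocampus TG_HFD/WT_HFD. Of all tested genes, 0.555%, 0.675%, 0.405% and 0.172% did not overlap in the brainstem contrasts TG_SD/WT_SD, TG_HFD/WT_HFD, WT_HFD/WT_SD and TG_HFD/TG_SD. In hippocampus the shares were 0.234%, 4.27%, 0.512% and 0.0452%. Hk1 in hippocampus was 372 to 421 CPM in WT_HFD (median 399) and 322 to 372 CPM in TG_HFD (median 358), with a gap of under 1 CPM between the nearest libraries. In the fit with surrogate variables its log2 fold change was 0.03 (edgeR adjusted p = 0.832), and without them −0.16 (edgeR adjusted p = 0.0601).

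This contrast was the one in which members passed when the fold threshold was dropped and fewer surrogate variables were used, settings chosen after seeing the data. With no surrogate variables Eno2 passed (log2 fold change −0.15, edgeR adjusted p = 0.0225), in a fit in which 7.29% of all tested genes did. With 2 surrogate variables 4 members passed, Hk1 (−0.16), Gpi1 (−0.10), Aldoa (−0.10) and Eno2 (−0.14), where 14.2% of all tested genes did. Eno2 was 805 to 939 CPM in WT_HFD and 745 to 831 CPM in TG_HFD. With 4 surrogate variables, or with a correction for GC content, 0 members passed. In these libraries, the slope of log2 expression on GC content had a median of 0.119 per 10% GC in WT_HFD and −0.0554 in TG_HFD. Its part in these values was not tested beyond the correction.

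Pygm was the other member without overlap. In brainstem it was 105 to 120 CPM in WT_HFD (median 110) and 74.5 to 103.8 CPM in TG_HFD (median 93.0), without overlap. The log2 fold change in the fit was −0.13 (SE 0.0536, edgeR adjusted p = 0.827), and over the alternative settings it was between −0.28 and −0.09, with adjusted p between 0.0596 and 1. In TG_HFD/TG_SD, with 81.3 to 111 CPM in TG_SD (median 101), it was −0.13 (edgeR adjusted p = 0.546) with overlapping groups. Pygb was 269 to 326 CPM in WT_HFD and 293 to 334 CPM in TG_HFD, with equal medians of 306 CPM.

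In the adjustment over all 81 tests, the ratio of Pygm to Pygb was the only 1 of 72 isozyme ratios within regions to pass. Its log2 value in brainstem was −1.16 ± 0.130 (SD, n = 6) in TG_HFD and −0.86 ± 0.169 (SD, n = 6) in WT_HFD, a difference of −0.30 without overlap (exact two-sided permutation p = 0.00216, the smallest these groups can give, adjusted p = 0.0195). The 8 region ratios that passed were in the same adjustment with smaller p. Adjusted over the 72 alone, the Pygm to Pygb difference would not have passed. At an unadjusted p of at most 0.05, 5 of the 72 passed. The ratio in TG_SD/WT_SD differed by −0.07 (−1.01 ± 0.134 against −0.94 ± 0.162, exact permutation p = 0.496), and in hippocampus TG_HFD/WT_HFD by −0.12 (exact permutation p = 0.277). The difference between these contrasts was not tested. Without the single TG_HFD library whose GC slope was under −0.2, the difference was −0.25 (exact permutation adjusted p = 0.0390). Without the libraries rich in choroid plexus genes, 4 TG_HFD and 3 WT_HFD libraries remained. The difference was then −0.24 without overlap (exact permutation p = 0.0286, the smallest that 4 against 3 can give, adjusted p = 0.231). Choroid plexus genes summed to 11.5 to 2421 CPM in TG_HFD and 29.5 to 2875 CPM in WT_HFD, and their part in the difference was not tested.

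A further list of 70 genes of the pathway was counted in the same fits, and 52 of them were tested. None of the 52 was called within a region in edgeR, where between 0% and 0.226% of all tested genes were called per contrast. At an unadjusted p of at most 0.05, between 1 and 8 of them passed per contrast. The 8 were in brainstem TG_HFD/TG_SD, where 6.91% of all tested genes passed. The lowest count, 1, was in hippocampus TG_HFD/TG_SD, where 7.08% did. Between the regions, 31 of 52 were called, 7 higher and 24 lower in hippocampus, with a median log2 fold change of −0.27, against 29.2% and 31% of all tested genes. Named after its value was seen, Slc2a1, the glucose transporter GLUT1 of the blood-brain barrier, was lower in hippocampus (log2 fold change −0.79, edgeR adjusted p = 1.79e-22). Of the 4 endothelial markers, 3 were called lower, and their part in this value was not tested.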

How the data were processed

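Poly(A)-selected single-end libraries were read for 75 bases. The authors checked reads with FastQC (0.11.9), aligned them with STAR (2.7.9a) to a mouse genome with the transgene added, and deposited raw counts per gene for each region, which were used here as deposited. The identity and reads of the transgene are not reported here. The assignment of reads to genes is not given in the sources used here, and DESeq2 (1.32.0) is named for their later normalization. Symbols, exon lengths and GC content were taken from GENCODE M21 (GRCm38). Counts were scaled by TMM, and genes averaging 50 reads or more per library were tested with edgeR (4.0.16) in R (4.3.3). Within a region, 4 groups were fitted with surrogate variables from svaseq (sva 3.50.0). Between regions, 8 groups were fitted without them. Levels are CPM scaled by TMM over 47 libraries. Ratios used 0.5 added reads and NumPy (2.4.6). Fits without surrogate variables were tested on simulated data, for TG_SD/WT_SD within each region and for the difference between regions. The fits with surrogate variables were not tested in this way.

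The members and lists were chosen with earlier results of these data known. Named were the members called, or else up to 2 of lowest p in each contrast (1 in the interaction), members whose log2 fold change between regions was 1 or more in size, and isozyme pairs. Isozyme pairs were followed as a family of 81 tests. Alternatives covered the count model (DESeq2 1.42.0), size factors, number of surrogate variables, filter, GC content, the replicate block, pseudocount, gene length and leaving out libraries. Replicates are separate animals per the study's methods. Groups within a region had 5 or 6 libraries, fewer where libraries were left out, and the regions 23 and 24.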

Additional observations from a re-analysis of the deposited data

Results flagged for a closer look

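For each named member and isozyme ratio, the highest and lowest library of a group was compared with the others by Dixon's criterion. It marked 20 of 232 sets of libraries (8.62%), where chance marks about 1 in 20. Levels are in CPM and ratios are log2 ratios of reads per kb. In brainstem WT_SD replicate 6, Hk1 was lowest at 151 CPM, where the other libraries had 211 to 227 CPM, and Pygb was lowest at 260 CPM, where the other libraries had 306 to 320 CPM, and Aldoc/Aldoa was highest at 0.81, where the other libraries had 0.45 to 0.48. In brainstem WT_SD replicate 4, Slc16a7/Slc16a1 was lowest at −4.48, where the other libraries had −4.00 to −3.85. In brainstem WT_HFD replicate 1, Hk1 was lowest at 185 CPM, where the other libraries had 212 to 228 CPM, and Pfkp was lowest at 237 CPM, where the other libraries had 248 to 253 CPM, and Slc16a7/Slc16a1 was lowest at −4.72, where the other libraries had −4.12 to −3.94. In brainstem TG_SD replicate 1, Hk2 was lowest at 2.98 CPM, where the other libraries had 3.86 to 4.31 CPM. In brainstem TG_SD replicate 6, Pdk1 was highest at 46.5 CPM, where the other libraries had 30.3 to 35.4 CPM. In brainstem TG_SD replicate 2, Pfkfb3 was lowest at 62.8 CPM, where the other libraries had 70.3 to 74.0 CPM. In brainstem TG_HFD replicate 3, Aldoc was lowest at 1351 CPM, where the other libraries had 1606 to 1725 CPM, and Eno1 was lowest at 516 CPM, where the other libraries had 655 to 709 CPM, and Pygm/Pygb was lowest at −1.42, where the other libraries had −1.15 to −1.07. In hippocampus WT_SD replicate 7, Eno2/Eno1 was highest at 0.47, where the other libraries had 0.26 to 0.33. In hippocampus WT_HFD replicate 6, Hk2/Hk1 was lowest at −5.88, where the other libraries had −5.64 to −5.51. In hippocampus TG_SD replicate 6, Pfkp was lowest at 166 CPM, where the other libraries had 183 to 190 CPM. In hippocampus TG_SD replicate 3, Pfkl/Pfkp was lowest at 0.998, where the other libraries had 1.27 to 1.38. In hippocampus TG_HFD replicate 3, Pfkm was lowest at 317 CPM, where the other libraries had 338 to 350 CPM, and Pfkp was lowest at 162 CPM, where the other libraries had 189 to 198 CPM, and Pfkm/Pfkp was highest at 2.97, where the other libraries had 2.82 to 2.85. No cause was tested for these values.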

How the results depend on the processing

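The count of 0 called members within regions held in every contrast under all alternatives that kept the fold threshold and without each library in turn. Without the threshold, settings chosen after seeing the data, hippocampus TG_HFD/WT_HFD gave 1 member with no surrogate variables, 3 with 1, 4 with 2, 2 with DESeq2 without surrogate variables and 1 with the replicate block without them. Slc16a1 passed without the threshold in brainstem TG_SD/WT_SD when WT_SD replicate 4 was left out (0.19, edgeR adjusted p = 0.0163). Pfkl turned in brainstem TG_HFD/WT_HFD to −0.0469 without surrogate variables, −0.0267 with the block and no surrogate variables and −0.0510 in DESeq2 without them. In brainstem WT_HFD/WT_SD it turned to 0.0704, 0.0745 and 0.0731 in the same order, and in the brainstem interaction to −0.00222 with 1 surrogate variable. In hippocampus WT_HFD/WT_SD, Pfkl turned to 0.0752, 0.0760 and 0.0778 with 0, 1 and 2 surrogate variables, 0.0754 with the block and none, and 0.0719 in DESeq2 without them. Aldoc turned there to −0.00148 without surrogate variables, −0.0106 with the GC correction and −0.00470 in DESeq2 without surrogate variables. In hippocampus TG_HFD/WT_HFD, Ldhb turned to 0.0302 and Aldoc to 0.00592 with the GC correction, and Ldhb to 0.00105 in DESeq2 without surrogate variables. Ldhb in hippocampus moved in TG_SD/WT_SD to −0.01 without WT_SD replicate 6 and −0.06 without WT_SD replicate 4. In TG_HFD/WT_HFD it moved to −0.03, −0.07, −0.02 and −0.06 without WT_SD replicates 3, 4, 6 and 8, and to −0.07 without TG_SD replicate 5. Aldoc moved in that contrast to −0.05 without TG_SD replicate 5 and −0.06 without WT_HFD replicate 8, Pfkl in hippocampus WT_HFD/WT_SD to −0.05 without WT_HFD replicate 8, and Slc16a7 in hippocampus TG_HFD/TG_SD to −0.07 without TG_HFD replicate 5. None of these members was called, and the cause was not tested.

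Between the regions, 18 to 23 members were called under other settings at the same fold threshold, 7 at a log2 fold change of at least 1, and 21 to 23 without each library in turn. Eno1 turned to −0.00670 with the GC correction. Within regions, 2 isozyme ratios passed with 5 added reads, 0 without the choroid-rich libraries, and 1 to 3 without each library in turn. The added ones were Pfkl/Pfkp and Eno2/Eno1 in hippocampus TG_HFD/WT_HFD and Hk2/Hk1 in brainstem. Pfkl/Pfkp (log2 difference −0.19, exact permutation adjusted p = 0.0526 with all libraries) passed with 5 added reads and without any 1 of 8 libraries. These were brainstem TG_HFD 4, 6 and 7, WT_SD 6 and 8, WT_HFD 8, hippocampus WT_SD 7 and WT_HFD 8. Only hippocampus WT_HFD 8 belongs to this contrast (−0.22 without it, exact permutation adjusted p = 0.0319). Without each of the others the difference and its p stayed the same. Only the adjustment over 81 tests moved (exact permutation adjusted p = 0.0478). Hk2/Hk1 passed in TG_HFD/TG_SD without TG_HFD 4 (−0.45) and in TG_SD/WT_SD without WT_SD 6 (0.37). Eno2/Eno1 passed without hippocampus WT_HFD 8 (−0.10). The Hk2 to Hk1 ratio between regions was −0.244 with 5 added reads and −0.205 to −0.155 without each library in turn, passing without any 1 of brainstem TG_HFD 6 or 7, WT_SD 8, WT_HFD 8 or hippocampus WT_SD 7 (adjusted p between 0.0229 and 0.0478). Correlations of deviations between same-numbered libraries of different groups were −0.314 to 0.404 in brainstem (median 0.039) and −0.147 to 0.410 in hippocampus (median 0.065). These values do not settle whether the replicate numbers pair libraries within a region. Across the regions 10 of 17 same-numbered pairs of a group were over 0.1 (−0.104 to 0.593). With the replicate number as a block, 22 members were called between the regions, as without it. The pairs of group and number were not fitted. With the replicate block, 0 members were called in any contrast within a region. Intervals cover the spread between libraries, and Slc16a3 was too scarce to test.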

Other observations

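Other genes of glucose metabolism differed between the regions by a log2 fold change of 1 or more in size, and they are named here after their values were seen. Of the 52 tested genes of the further list, 4 were higher and 4 lower in hippocampus by this measure, while 18.4% of all tested genes passed in either direction, so that the list did not stand out. Higher were Pgam2, the muscle form of phosphoglycerate mutase (log2 fold change 2.50, SE 0.0906), Pgm2l1, which makes glucose bisphosphate (1.52, SE 0.0546), Slc2a13, a proton-coupled myo-inositol transporter (1.38, SE 0.0410), and Gpd2, the mitochondrial glycerol phosphate dehydrogenase (1.03, SE 0.0265). Lower were Emb, embigin, a chaperone of monocarboxylate transporters (−1.48, SE 0.0325), G6pdx, the entry enzyme of the pentose phosphate pathway (−1.15, SE 0.0299), Gbe1, the glycogen branching enzyme (−1.06, SE 0.0488), and Ldhd, which oxidises D-lactate (−1.06, SE 0.0539). All 8 passed in edgeR, with an adjusted p of at most 1.23e-23.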
